A study of Oryctolagus cuniculus with 6 samples.

Results

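PSAT1, PHGDH and SHMT2 are enzymes of serine metabolism, and their RNA was followed here in rabbit blastocysts that had been vitrified or slowly frozen. The 3 genes were chosen by name and selected on earlier results of the vitrified embryos in these same data, so their changes are given as a description and carry no test. Every probe that the array assigns to them was used, which gave 6 probes for PSAT1, 1 for PHGDH and 1 for SHMT2. They stand among 8090 genes with a measured probe and a symbol.

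Cells make serine from the glycolytic intermediate 3-phosphoglycerate in consecutive steps. PHGDH, phosphoglycerate dehydrogenase, oxidises it to the keto acid, and PSAT1, phosphoserine aminotransferase, passes the amino group of glutamate to that product. PSPH, phosphoserine phosphatase, then releases serine. SHMT2 is the mitochondrial serine hydroxymethyltransferase, which splits serine into glycine and a carbon unit carried by folate, used for nucleotide synthesis and methylation. Serine can also be imported, by carriers such as SLC1A5 and SLC38A2.

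The embryos were 6-day-old New Zealand White rabbit blastocysts, a stage shortly before attachment to the uterus. Vitrified embryos had passed through 12.5% and then 20% each of dimethyl sulphoxide and ethylene glycol before being plunged into liquid nitrogen, so that no ice forms. Slowly frozen embryos had been equilibrated stepwise up to 1.5 M dimethyl sulphoxide, seeded with ice at -7 °C and cooled at 0.3 °C per min to -35 °C. Both kinds were warmed and transferred into recipient females, and viable embryos were collected at 6 days. Controls were untreated embryos of that age developed in vivo, so the treated groups differ from them by transfer as well as by cryopreservation, and the effects of both cannot be told apart. A treated and a control extract were hybridised together on each of the 6 arrays. Vitrified embryos have 3 arrays and frozen embryos 3, called replicates 1 to 3. The dyes were swapped on both replicate 2 arrays, and the labels give the controls of same-numbered arrays the same name. The study counts 3 control replicates in all, so such arrays were taken to share a control extract, which the labels do not state outright. The labels call them biological replicates and do not say how many embryos went into an extract.

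Blastocyst identity was read from marker genes. For the trophectoderm, the outer layer, 6 of 8 markers were measured (GATA2, GATA3, TFAP2A, TFAP2C, KRT8 and ELF3), and all 6 were well above background in every control channel. For the epiblast 2 of 6 had a measured probe, POU5F1 and DPPA5, and both were above background in every control. The scanner software put 44.7% to 58.0% of spots in green and 64.2% to 74.5% in red clearly over background. The median change of all genes was -0.0052 in vitrified and -0.0032 in frozen embryos, so the scale is centred near 0.

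The probe sequences show which part of each RNA was measured. PSAT1 has 4 probes tiled over the end of its coding sequence, each shifted by 1 base from the next. They share 57 of their 60 bases and so are repeats of nearly the same measurement. The capitals mark the TGA stop codon, which completes the reading frame in the last of them.
A_04_P072595: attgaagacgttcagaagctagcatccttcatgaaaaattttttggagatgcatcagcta
A_04_P072594: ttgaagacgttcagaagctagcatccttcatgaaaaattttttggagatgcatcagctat
A_04_P072593: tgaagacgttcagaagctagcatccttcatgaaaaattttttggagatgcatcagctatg
A_04_P072592: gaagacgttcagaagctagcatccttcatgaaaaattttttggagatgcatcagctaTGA

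The files place the first of these probes at chr1:64727049-64727108 and the last at chr1:64727052-64727111, with a genome build that is not given in the sources used here. The other 2 PSAT1 probes, A_04_P002547 and A_04_P002546, start 795 and 899 bases beyond that stretch, at chr1:64727906-64727965 and chr1:64728010-64728069. They lie past the stop codon and are taken here as the 3′ untranslated region. PHGDH and SHMT2 rest on 1 probe each, shown because no second probe checks them.
PHGDH A_04_P078937: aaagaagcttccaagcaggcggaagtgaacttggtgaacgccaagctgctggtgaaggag
SHMT2 A_04_P002791: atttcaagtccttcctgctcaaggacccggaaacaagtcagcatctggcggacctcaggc

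The PHGDH probe is placed on chromosome 13 from 44695118 to 44695059, with the start above the end, and the SHMT2 probe is unmapped in the files. The 4 coding end probes of PSAT1 hold 36.7% to 38.3% G and C, against 53.3% in the PHGDH probe and 55.0% in the SHMT2 probe.

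In vitrified embryos PSAT1 RNA stood above the control on every array. Its log2 ratio of vitrified over control, the mean of its 6 probes, was 1.14 on replicate 1, 1.23 on replicate 2 and 1.81 on replicate 3. In frozen embryos the corresponding ratios were 0.19, -0.27 and -0.02. The lowest vitrified array thus lay well above the highest frozen array, and the frozen arrays scattered around 0. The fitted change was 1.34 ± 0.14 (log2, SE of the fit over all 6 arrays) in vitrified embryos, a 2.53-fold difference, and -0.08 ± 0.14 in frozen embryos. The SE of fitted changes pools the spread of both treatments and borrows from all measured probes. It is therefore the same for both treatments and is not the spread of the 3 arrays of a treatment. Vitrified exceeded frozen embryos by 1.42 ± 0.19, or 2.69-fold.

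PHGDH, which supplies the substrate of PSAT1, followed the same order of groups. Its ratios were 0.95, 1.06 and 1.23 in vitrified embryos, a narrow spread of 1.08 ± 0.14 (SD, n = 3 arrays). In frozen embryos they were 0.31, -0.86 and -0.10, a spread of -0.21 ± 0.59. No frozen array reached the lowest vitrified array. The fitted change was 1.00 ± 0.16 in vitrified and -0.30 ± 0.16 in frozen embryos, with a difference of 1.30 ± 0.23. The negative frozen value rests on replicate 2, a dye-swapped array, and without it the fitted value was 0.09. The fitted vitrified value fell to 0.61 without vitrified replicate 2, the other swapped array, although the vitrified ratios left were 0.95 and 1.23. In that fit the dye term rests on frozen replicate 2 as the only swapped array. PHGDH was also dim. It was well above background in 9 of 12 channels, missing the treated channel of frozen replicate 2 and the control channels of both replicate 3 arrays.

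SHMT2 showed a smaller difference in vitrified embryos. Its ratios were 0.51, 1.06 and 0.46 in vitrified embryos and 0.09, 0.32 and 0.26 in frozen embryos. The groups did not overlap, but the lowest vitrified and the highest frozen array lay close together. The fitted change was 0.74 ± 0.11 in vitrified embryos, 1.66-fold, and 0.28 ± 0.11 in frozen embryos. Vitrified exceeded frozen embryos by 0.45 ± 0.15. Without frozen replicate 2 the fitted frozen value was 0.46, which is above every frozen ratio. In that fit the dye term rests on vitrified replicate 2 as the only swapped array. The frozen value was 0.11 when frozen embryos were set against the mean of all 6 control channels. That last choice also raised the difference between treatments to 0.68. SHMT2 was well above background in all 12 channels.

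**Figure D1:**
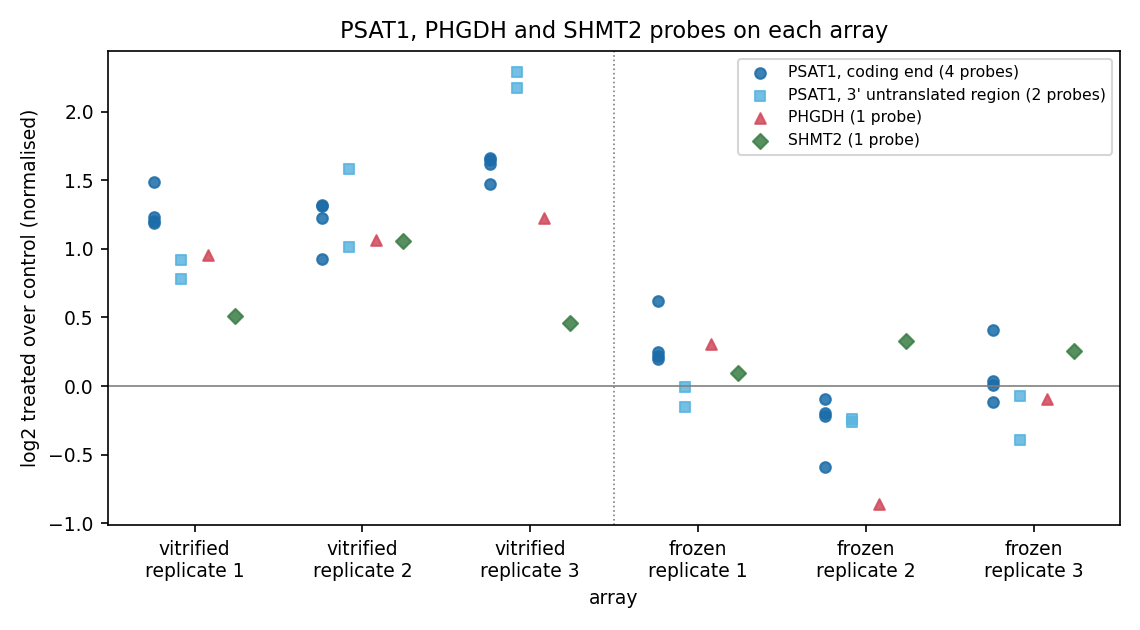
Log2 ratio of treated over control (vertical axis) for each probe of the 3 genes on each of the 6 arrays (horizontal axis), with symbols for the gene and, for PSAT1, the part of the RNA. All PSAT1 points of the vitrified arrays lie above 0, while those of the frozen arrays lie on both sides of it, and PHGDH on frozen replicate 2 is the lowest point at -0.86.

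In the vitrified comparison 3 of the 8 probes had an adjusted p under 0.05 in limma, all of them coding end probes of PSAT1 (adjusted p = 0.0269 each). Across the array 0.0195% of probes and 0.0247% of genes with a called probe met that mark. Since the genes were selected on this comparison, nothing is read from the count. The fourth coding end probe, A_04_P072592, had 0.0516, and both untranslated region probes, PHGDH and SHMT2 had 0.144. The count of PSAT1 probes was 0 without vitrified replicate 2 or 3 and without frozen replicate 1, 2 or 3, and 3 without vitrified replicate 1. Over the whole array 0 probes met the mark without vitrified replicate 2, frozen replicate 2 or frozen replicate 3, against 16 without vitrified replicate 3, 4 without frozen replicate 1 and 5 without vitrified replicate 1. In the frozen comparison none of the 8 probes met it, against 0.185% of all probes and 0.222% of genes. Between treatments 0% of probes and 0% of genes met it, and the smallest adjusted p on the array, 0.223, was that of the same 3 PSAT1 probes. At an unadjusted p under 0.05 that comparison held 2320 probes.

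The PSAT1 probes were compared along the RNA. At the coding end the vitrified ratios were 1.28, 1.20 and 1.60, and in the untranslated region they were 0.85, 1.30 and 2.23. The untranslated region thus spread more widely over the arrays, with SDs of 0.70 against 0.21. It was lower than the coding end on vitrified replicate 1 and higher on replicates 2 and 3. Fitted changes were 1.30 ± 0.11 at the coding end and 1.43 ± 0.23 in the untranslated region, a gap within the standard error of the latter. In frozen embryos the coding end gave 0.32, -0.27 and 0.08 and the untranslated region -0.08, -0.25 and -0.23. Both untranslated region probes were well above background in 12 of 12 channels. At the coding end 2 probes, A_04_P072592 and A_04_P072595, missed that mark in the control channel of vitrified replicate 3.

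The levels in the separate channels show which side of each ratio moved. In log2 units of normalised intensity, the 6 control channels of PSAT1 ran from 8.28 to 8.80 with a median of 8.50. Vitrified embryos had 9.49, 10.00 and 10.43, each above the highest control. Frozen embryos had 8.47, 8.54 and 8.35, each inside the control range. For PHGDH the controls ran from 7.006 to 7.86 with a median of 7.36. Its vitrified levels of 8.34, 8.55 and 8.56 were again all above the controls. The frozen levels were 7.31, 7.004 and 7.006, of which the last 2 lay at or just under the lowest control. The SHMT2 controls ran from 10.54 to 11.22, with a median of 10.77, and the vitrified levels of 11.73, 11.59 and 11.60 were above them. The frozen SHMT2 levels of 10.76, 11.14 and 10.97 fell inside the control range. Levels are comparable between channels for a gene and not between genes, whose probes differ.

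**Figure D2:**
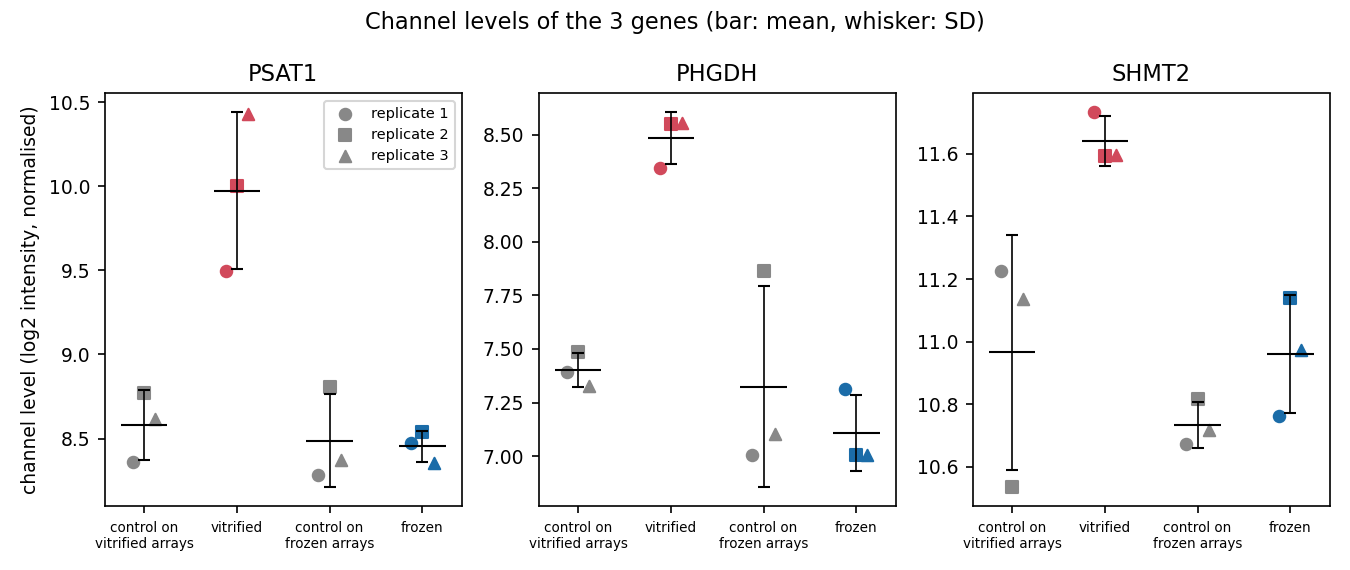
Normalised log2 intensity (vertical axis) of PSAT1, PHGDH and SHMT2 in the control and treated channels (horizontal axis), with symbols for the replicate, bars for the mean and whiskers for the SD of 3 channels. Each vitrified channel of PSAT1 lies at 9.49 or above, higher than every control, and the frozen PSAT1 channels lie among the controls.

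The controls of same-numbered arrays were compared. If they are the same extract, their difference is error between arrays, and otherwise it also holds the spread between extracts. For PSAT1 the control level on the vitrified array minus that on the frozen array was 0.07, -0.03 and 0.24 for replicates 1, 2 and 3. For PHGDH it was 0.38, -0.37 and 0.23, and for SHMT2 0.55, -0.28 and 0.42. Over all measured probes the median size of this difference was 0.143, 0.168 and 0.220, and its 95th percentile 0.486, 0.581 and 0.745. The PSAT1 differences of replicates 1 and 2 were smaller than those medians, but they average 6 probes and the medians are of single probes. The PSAT1 coding end had 0.17, -0.15 and 0.38, and the untranslated region -0.12, 0.19 and -0.02. Opposite signs thus partly cancelled in the PSAT1 mean. The SHMT2 difference of replicate 1 was beyond the 95th percentile. It was larger than the SHMT2 difference of 0.45 between treatments.

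Within replicate pairs, vitrified minus frozen was 0.95, 1.50 and 1.83 for PSAT1. It was 0.65, 1.92 and 1.32 for PHGDH and 0.42, 0.73 and 0.20 for SHMT2. All 9 paired values were above 0, which the selection of the genes partly builds in, so nothing is read from that count. The arrays lay on 2 slides of 3, and both slides held arrays of each treatment. The difference within slide 1 and slide 2 was 1.18 and 1.54 for PSAT1, 1.23 and 1.24 for PHGDH, and 0.30 and 0.50 for SHMT2.

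The place of the genes among all 30761 measured probes was read for each array. On vitrified replicates 1, 2 and 3, 1.19%, 0.309% and 0.0293% of probes had a higher ratio than PSAT1. For PHGDH these shares were 1.91%, 0.579% and 0.104%, and for SHMT2 9.51%, 0.592% and 4.63%. On the frozen arrays PSAT1 lay in the body of the distribution, with 27.9%, 80.5% and 59.1% of probes above it. PHGDH had 16.1%, 98.4% and 69.4% above it there, and SHMT2 40.3%, 10.4% and 20.0%. PSAT1 and PHGDH were thus near the top in vitrified embryos, as the selection of the genes implies.

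Genes were ordered by how far their 6 ratios lay from those of PSAT1, as the root mean square difference over the 6 arrays, among 8085 genes with a value on each. PHGDH was the nearest of all, at 0.358. ENKD1 followed at 0.557, PPM1F, a protein phosphatase, at 0.588, ACP6, a phosphatase of lysophosphatidic acid, at 0.598, and FTL, the ferritin light chain that stores iron, at 0.620. SHMT2 came at rank 11, at 0.669. FTL ratios were 0.91, 0.60 and 0.46 in vitrified and 0.20, -0.29 and 0.19 in frozen embryos. ACP6 was above 0 on all 6 arrays, with 0.76 on frozen replicate 3. The order describes these 6 arrays. PSAT1 and PHGDH were both selected for high vitrified values, which enter this measure, so the nearness of PHGDH is partly built in.

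**Figure D3:**
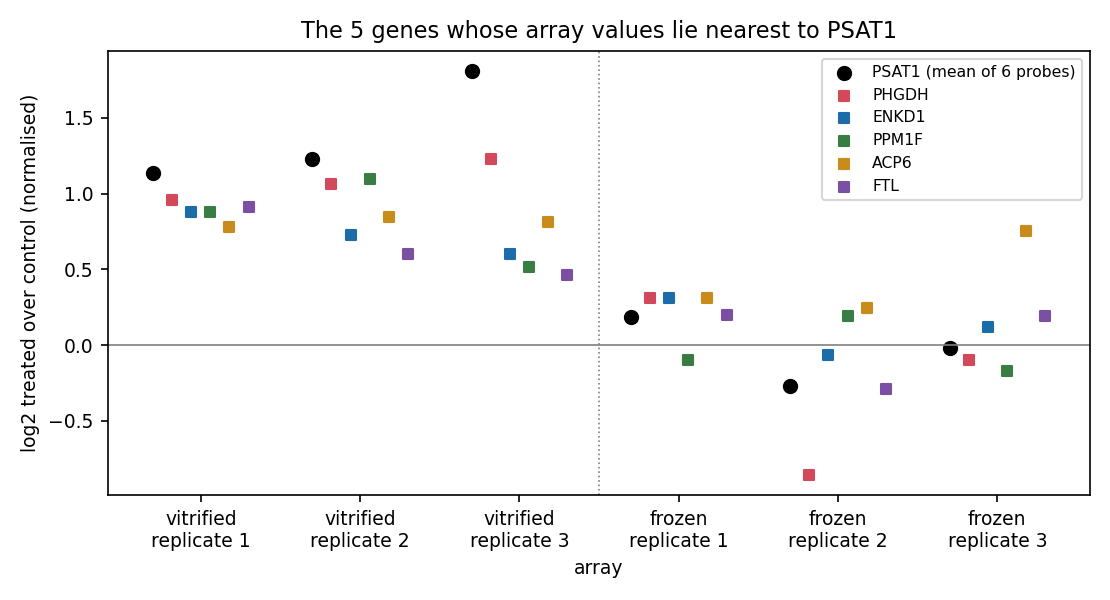
Log2 ratio of treated over control (vertical axis) on each array (horizontal axis) for PSAT1 and the 5 genes nearest to it. PHGDH lies closest to PSAT1 on vitrified replicates 1 and 3 and falls below the other genes, to -0.86, on frozen replicate 2.

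Genes that surround these enzymes in metabolism were taken from lists of 100 genes. Of these 69 had a measured probe. PSPH, the enzyme between phosphoserine and serine, had no matched probe and was not analysed here. None of the 69 passed the adjusted test in vitrified embryos, frozen embryos or the difference between them. At an unadjusted p under 0.05 in limma, 13 were higher and 13 lower in vitrified embryos, 18.8% each way, against 9.22% and 7.44% of all genes. In frozen embryos 7 of the 69 were higher (against 5.54% of all genes) and 8 lower (11.6%, against 7.49%). Between treatments 9 were higher in vitrified embryos (13.0%, against 4.30%) and 5 lower (7.25%, against 3.50%). The median change of the 69 was 0.022, -0.0043 and 0.015 in these comparisons, so the genes around the pathway moved to both sides of 0.

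Amino acid transport held the gene with the smallest p of the 69 between treatments. SLC1A5, the carrier of neutral amino acids including serine and glutamine, had ratios of 0.42, 0.39 and 0.84 in vitrified and -0.53, -0.56 and -0.11 in frozen embryos. All vitrified arrays were above the control and all frozen arrays below it. The difference was 0.95 ± 0.17, with an unadjusted p of 0.000746 and an adjusted p of 0.41 in limma. Its dimmer second probe had -0.47, 0.76 and 0.61 in vitrified and -0.44, -0.64 and 0.03 in frozen embryos, so there the groups overlapped, with a difference of 0.65 ± 0.34. SLC38A2, another importer of small neutral amino acids, had 0.33, 0.34 and 0.26 in vitrified and 0.23, -0.33 and 0.09 in frozen embryos. SERINC5, a serine incorporator, had a frozen value of 0.22 ± 0.09. Of 6 transport genes measured out of 11 listed, 2 were higher in vitrified embryos at the unadjusted mark and none was lower (33.3% and 0%, against 9.22% and 7.44% of all genes). In frozen embryos 1 was higher and 1 lower (16.7% each, against 5.54% and 7.49% of all genes).

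The folate cycle, which takes up the carbon unit that SHMT2 releases, had 18 of its 19 genes measured. At the unadjusted mark 5 were higher and 2 lower in vitrified embryos (27.8% and 11.1%, against 9.22% and 7.44% of all genes). In frozen embryos 3 were higher and 0 lower (16.7% and 0%, against 5.54% and 7.49%). Between treatments 2 were higher and 3 lower in vitrified embryos (11.1% and 16.7%, against 4.30% and 3.50%). ALDH1L1, which oxidises formyl-folate in the cytosol, had 0.35 ± 0.10. MTHFD2, the mitochondrial enzyme next to SHMT2, ran the other way, with -0.35, -0.48 and 0.10 in vitrified and 0.61, 0.07 and 0.36 in frozen embryos. Its difference between treatments was -0.59 ± 0.16, with an adjusted p of 0.592. GGH, which trims the glutamate tail of folates, had -0.61, -0.17 and -0.14 in vitrified and 0.71, 0.25 and 0.33 in frozen embryos. MTHFD1L, the mitochondrial formate producer, had a frozen value of 0.27 ± 0.09. The cytosolic counterpart of SHMT2, SHMT1, had 0.35 ± 0.11 in vitrified and 0.26 ± 0.11 in frozen embryos. Its ratios were 0.03, 0.58 and 0.08 in vitrified and -0.33, 0.75 and -0.01 in frozen embryos. Both fitted values thus lean on the dye-swapped replicate 2 arrays.

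The glycine cleavage system breaks down the glycine that SHMT2 makes. Of its 4 genes 3 were measured, and AMT (-0.38 ± 0.12) and GCSH (-0.33 ± 0.14) were lower in vitrified embryos at the unadjusted mark. That is 66.7% lower and 0% higher, against 7.44% and 9.22% of all genes. GCSH had 0.18, -0.51 and -0.42 in vitrified embryos, so it was above 0 on replicate 1. The remaining gene, GLDC, went the other way, at 0.50 ± 0.21. In the methionine cycle AHCY, which clears S-adenosylhomocysteine, had -0.32 ± 0.11 in vitrified and -0.37 ± 0.11 in frozen embryos. MAT2B, the regulatory subunit of the S-adenosylmethionine synthase, had -0.25 ± 0.10 in vitrified embryos. CBS joins serine to homocysteine, and its frozen ratios were -0.65, -1.39 and -0.27, a fitted -0.84 ± 0.20 with an adjusted p of 0.162. Without frozen replicate 2 it was -0.41. For GNMT, which methylates glycine, the 2 probes disagreed. The brighter gave 0.23 ± 0.10 in vitrified and -0.33 ± 0.10 in frozen embryos, a difference of 0.57 ± 0.14 with an adjusted p of 0.592. The other gave 0.60 ± 0.11 and 0.39 ± 0.11, a difference of 0.21 ± 0.14.

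Among the users of serine SRR, serine racemase, had -0.44 ± 0.14 in vitrified embryos, and SPTLC2, a subunit of the first sphingolipid enzyme, had 0.45 ± 0.11 in frozen embryos. PTDSS1, a phosphatidylserine synthase, had -0.28 ± 0.13 in vitrified embryos. Purine synthesis had 3 of 6 genes measured, of which PPAT, the committing enzyme, had -0.28 ± 0.10 in vitrified embryos.

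The amino acid response is a programme in which the factor ATF4 raises genes of amino acid synthesis and transport, PHGDH and PSAT1 among its known targets. ATF4 itself had no matched probe, and 20 of 32 listed genes were measured. In vitrified embryos 4 were higher and 2 lower at the unadjusted mark (20.0% and 10.0%, against 9.22% and 7.44% of all genes). In frozen embryos 1 was higher and 4 lower (5.0% and 20.0%, against 5.54% and 7.49%). CHAC1, which degrades glutathione, had 0.28, 0.65 and 0.67 in vitrified and -0.02, 0.15 and -0.05 in frozen embryos. Its vitrified change was 0.57 ± 0.11 with an adjusted p of 0.144. SLC7A5, a leucine carrier, had 0.72, 1.01 and 0.39 in vitrified embryos but -0.88, 0.61 and 0.44 in frozen embryos. ALDH18A1, the first enzyme of proline synthesis from glutamate, had -0.49, -1.02 and -0.30 in frozen embryos. Its frozen change of -0.70 ± 0.10 had an adjusted p of 0.0648, the smallest of the 69 genes, and its vitrified value was -0.01 ± 0.10. STC2, a secreted stanniocalcin, had -0.54 ± 0.13 in frozen embryos. For WARS1, a tryptophan transfer RNA ligase, vitrified minus frozen was 0.42 ± 0.14 by the brighter probe and -0.05 ± 0.23 by the other.

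Of the genes that supply 3-phosphoglycerate and glutamate, GAPDH, the glycolytic dehydrogenase upstream of 3-phosphoglycerate, had 0.54, 0.55 and 0.57 in vitrified and 0.39, -0.42 and -0.004 in frozen embryos. GLUD1, which takes glutamate to ketoglutarate, had -0.54, -0.13 and -0.23 in vitrified and 0.22, 0.04 and 0.04 in frozen embryos. PKM, pyruvate kinase, had -0.49 ± 0.28 in frozen embryos.

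Counted by separation of the arrays, 10 of the 69 genes had every vitrified ratio above every frozen ratio, 14.5%, against 6.49% of all genes. These were ALDH1L1, FPGS, GNMT, SLC1A5, SLC38A2, CEBPG, CHAC1, ALDH18A1, WARS1 and GAPDH. The reverse held for 4 genes, MTHFD1L, GGH, SERINC5 and GLUD1, which is 5.80% against 4.96%. The count uses the brightest probe of a gene, and the second probes of SLC1A5, GNMT and WARS1 did not separate the groups, nor did 1 of 5 probes each of SLC38A2 and CEBPG. PSAT1, PHGDH and SHMT2 are themselves in the first class, which their selection favours, so nothing is read from it.

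**Figure D4:**
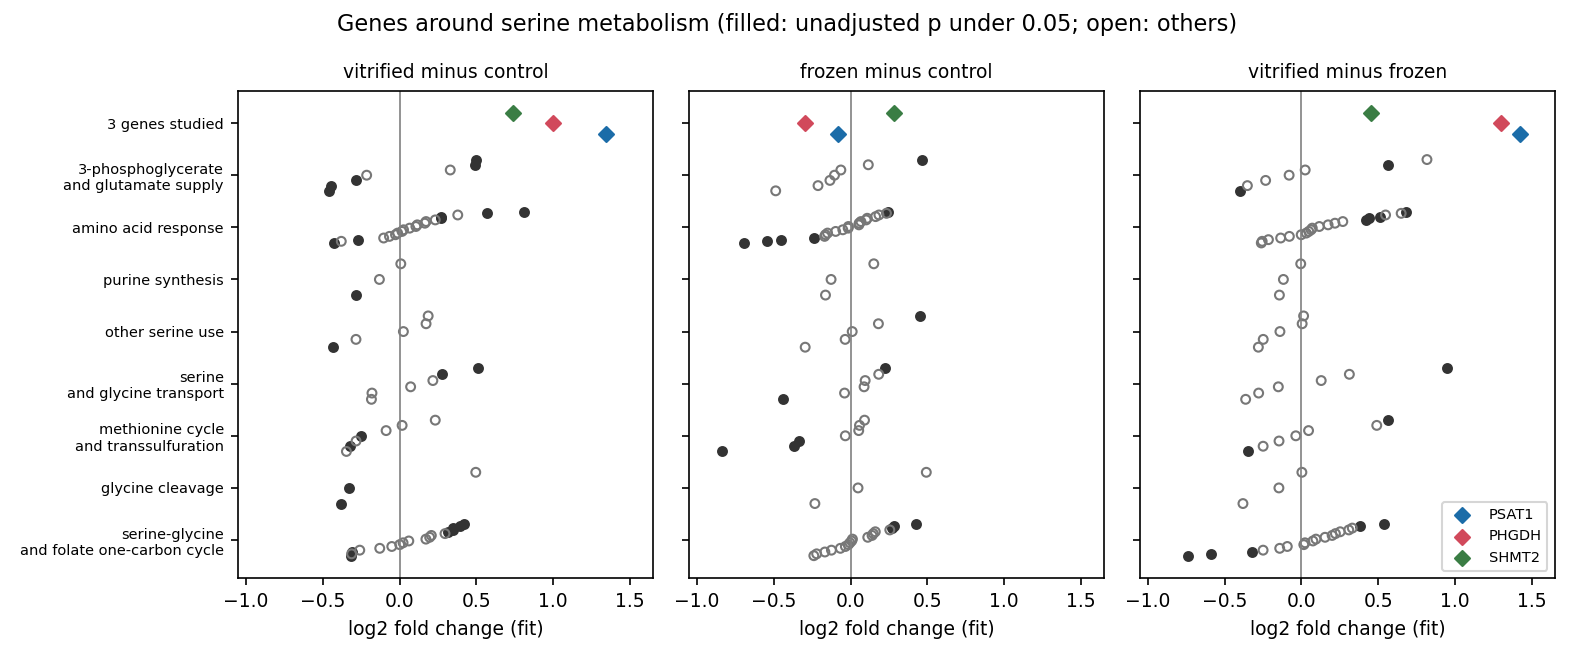
Fitted log2 change (horizontal axis) of the 69 measured genes around serine metabolism, by list (vertical axis), in vitrified embryos, in frozen embryos and between them; filled points have an unadjusted p under 0.05. The genes of each comparison lie on both sides of 0, and PSAT1 and PHGDH (diamonds) lie beyond every listed gene in the vitrified panel.

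Fitted changes of marker genes were also read in the vitrified and frozen comparisons. Among the measured markers, only APOA2, an endoderm gene, had an adjusted p under 0.05 in limma, in frozen embryos (0.0423). Of 6 red blood cell genes 4 were measured, and the haemoglobin genes HBB2 and HBA had 3.61 and 2.33 in vitrified and 1.92 and 1.03 in frozen embryos. In limma their adjusted p was 0.144 each in vitrified embryos, and 0.28 and 0.231 in frozen embryos. The other 2 red blood cell genes had smaller values, with 0.75 and 0.28 for ALAS2 and -0.07 and -0.12 for SLC4A1. The summed level of a list is the log2 of its added intensities, to which the brightest genes give most. For red blood cell genes it ran from 11.5 to 13.5 in controls, 13.9 to 17.3 in vitrified and 12.1 to 15.3 in frozen channels. The uterine secretion gene SCGB1A1 had 2.03 in vitrified (adjusted p = 0.144 in limma) and 1.51 in frozen embryos (0.134). With WFDC2, the only other measured gene of its list of 4, it summed to 10.4 to 11.7 in controls, 11.9 to 12.7 in vitrified and 10.4 to 11.98 in frozen channels. The trophectoderm, epiblast and endoderm belong to the blastocyst itself. The 6 trophectoderm genes had a median change of 0.25 in vitrified and 0.30 in frozen embryos. For the 2 epiblast genes it was 0.12 and -0.39. Of 8 endoderm genes 5 were measured, with a median of -0.09 in vitrified and -1.13 in frozen embryos. Their summed level was 12.9 to 13.8 in controls, 12.7 to 13.6 in vitrified and 11.9 to 12.5 in frozen channels. Of 4 immune cell genes CD68 alone was measured, at 0.07 and -0.22. The part of these cells in the PSAT1, PHGDH and SHMT2 values was not tested. In RNA of whole embryos, fewer cells of a type and less RNA per cell cannot be told apart.

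How the values depend on processing was followed for the 3 genes. PSAT1 in vitrified embryos ranged from 1.18 to 1.79 over 20 alternatives and SHMT2 from 0.56 to 0.79. PHGDH ranged from 0.61 to 1.89 over 19 alternatives. The highest PSAT1 and PHGDH values came from the log ratio that the scanner software computed. An offset of 50 added to each signal pulls ratios of dim probes towards 0, and PHGDH in vitrified embryos was 1.31 without it. In frozen embryos PSAT1 stayed between -0.25 and -0.03, and PHGDH ranged from -0.81 to 0.09.

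**Figure D5:**
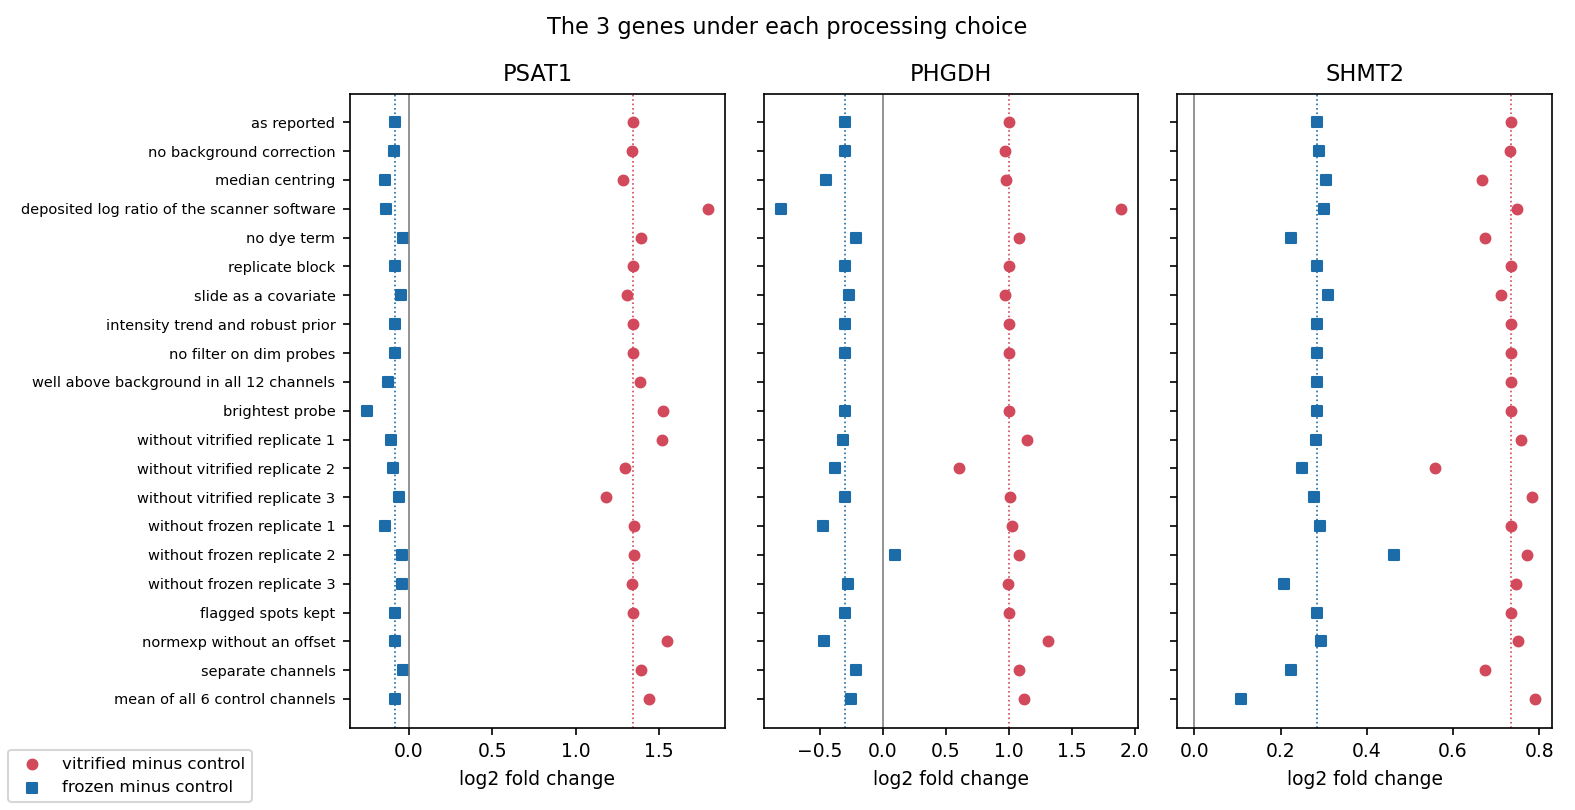
Fitted log2 change (horizontal axis) of PSAT1, PHGDH and SHMT2 in vitrified and in frozen embryos under each processing choice (vertical axis), with dotted lines at the reported values. The vitrified points lie to the right of the frozen points in every row that has values, and the scanner log ratio gives the widest gap for PHGDH.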

How the data were processed

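RNA of 6-day-old rabbit blastocysts was measured on 6 Agilent arrays of 2 colours. The deposited files hold, per the file headers, the intensity of each spot (mean signal, median local background) as read by Agilent Feature Extraction 10.10.1.1, without normalisation. Also deposited is a log10 ratio, red to green, that the software had corrected for background and dye per the file headers, and it served as an alternative. Other deposited values are the software's own marks for spots over background. From the intensities, background was corrected with normexp (offset 50) in limma 3.58.1 under R 4.3.3, followed by loess within arrays that gave control spots a weight of 0. Spots that the software called outliers were left out, and repeated spots were averaged. The test covered 30761 of 43603 probes, those clearly over background in 3 or more of 12 channels. Channel levels came from quantile normalisation of average intensities.

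Log2 ratios (treated over control) were fitted in limma (eBayes) with a coefficient per treatment and a dye term over all 6 arrays, leaving 3 residual degrees of freedom. The p-values were adjusted by Benjamini-Hochberg across every tested probe. The value of PSAT1 is the mean of its probes. A listed gene is given by its brightest probe, and is called where any of its probes passes. The fit was tested on simulated data. A symbol was found for 21157 probes through the files' names and accessions and a RefSeq gene table of assembly mOryCun1.1. Several genes fitted 138 probes, 1343 led to a gene number only, and 20965 found no match. Members, lists and alternatives were chosen with earlier results of these data known. Named were, per list and comparison, the 2 genes with the smallest unadjusted p, and the 5 genes nearest to PSAT1; some genes that this rule takes are not reported here. SHMT1, FPGS, CEBPG, WARS1 and the 11th rank of SHMT2 were named after their values were seen.

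Same-numbered arrays carry controls of the same name in the labels and were taken to share the extract, which would pair them. Their deviations from the treatment means correlated at 0.0175 (replicate 1), 0.594 (replicate 2) and 0.166 (replicate 3). No dye effect was taken out of these deviations, and both replicate 2 arrays were dye-swapped. A shared dye effect and a shared extract therefore cannot be told apart in these correlations. Alternatives were other background, normalisation, filter, dye, replicate block, slide, spread, probe and control choices and leaving out each array. The number of arrays limits the precision.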

Additional observations from a re-analysis of the deposited data

Results flagged for a closer look

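The following genes had every vitrified array on one side of 0 and every frozen array on the other. Among the 69 genes around serine metabolism 5 did so (7.25%), against 216 of 8090 genes in all (2.67%). By its brightest probe SLC1A5 differed by 0.95 between vitrified and frozen embryos, GNMT by 0.57 and WARS1 by 0.42, each higher in vitrified embryos. Their second probes did not show the opposite signs, with differences of 0.65 for SLC1A5, 0.21 for GNMT and -0.05 for WARS1. GGH differed by -0.74 and GLUD1 by -0.40, each lower in vitrified embryos. In limma the adjusted p of these differences, over all probes, was 0.41 for SLC1A5, 0.592 for GNMT and GGH, 0.607 for WARS1 and 0.647 for GLUD1, so none passed.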

How the results depend on the processing

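All 9 values of PSAT1, PHGDH and SHMT2 kept their sign under the alternatives run, except PHGDH in frozen embryos, which was 0.09 without frozen replicate 2. With the scanner software's log ratio, vitrified minus control was 1.79 for PSAT1 and 1.89 for PHGDH, and vitrified minus frozen was 1.93 and 2.70; apart from the offset, the cause was not tested. PHGDH in vitrified embryos was 1.31 with normexp without an offset, a choice added after seeing the data, and SHMT2 in frozen embryos was 0.11 against the mean of all 6 control channels. Leaving out each array gave fitted values of 0.61 to 1.15 for PHGDH in vitrified embryos and 0.21 to 0.46 for SHMT2 in frozen embryos. The values 0.61 and 0.46 came from leaving out a dye-swapped array, after which the dye term rests on the other swapped array alone. Of the 69 surrounding genes 0 to 2 passed in frozen embryos when an array was left out. The 2, without vitrified replicate 1, were CBS (-0.88, adjusted p = 0.0391 in limma) and ALDH18A1 (-0.71, adjusted p = 0.0263); 513 probes of the whole array passed there, against 57 with all arrays. CBS ran from -1.02 to -0.41 with an array left out. None passed in the other comparisons under any alternative.

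With the replicate block, which uses the presumed pairing by control extract, PSAT1 in vitrified embryos was again 1.34 with an SE of 0.14, and 4 of its probes passed in place of 3 (8 probes of the whole array in place of 6); no other call of a listed gene changed. The block correlation was -0.10. Of PSAT1 probes 4 passed in the vitrified comparison with no background correction (8 probes of the whole array) or median centring (9). None passed there with the scanner log ratio, slide as a covariate or an intensity trend. The same held for the filter on all 12 channels (5 of the 8 probes left) and for no offset. On the whole array 0 probes passed in the vitrified comparison under each of these choices, except 2 with no offset. With an array left out, the fitted PKM frozen minus control ran from -0.84 to 0.11 (without frozen replicate 2). The PKM ratios of the frozen arrays left there, -1.11 and -0.16, were both below 0. In that fit the dye term rests on vitrified replicate 2 as the only swapped array. AMT vitrified minus frozen ran from -0.30 to 0.023 (without frozen replicate 3), so both fitted values turned in sign. Of 861 alternative values of named listed genes 857 kept direction and side of the threshold. PHGDH was over background in 9 of 12 channels.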

Other observations

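Some listed genes varied more between arrays of a treatment than between treatments. PKM had ratios of -0.72, 1.19 and 0.13 in vitrified embryos, and GLDC, the decarboxylase of glycine cleavage, had 1.01, 0.53 and -0.11. In frozen embryos GLDC had 0.10, 0.59 and 0.72, and its fitted values of 0.50 ± 0.21 and 0.49 ± 0.21 in vitrified and frozen embryos did not pass the test in limma.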
